A study of Drosophila melanogaster with 12 samples.

Results

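The transcripts of 8 eye pigment genes were examined in 1-day-old whole Drosophila melanogaster: white (w), brown (bw), scarlet (st), vermilion (v), cinnabar (cn), sepia (se), rosy (ry) and maroon-like (ma-l). They were selected by gene symbol from the 16997 genes of each deposited table, in a list drawn up when comparison results of these tables were already known. All 8 were found, 7 under the symbol given here and ma-l under its other symbol mal. The tables cover 12 libraries, 4 from each of 3 groups. Flies of the Ub6-GG group carried a transgene for a linear ubiquitin chain that can be conjugated to other proteins through its end. Flies of the Ub6-Stop group carried a chain without that end, and control flies shared the genetic background but had no Ub6 transgene. All groups carried the driver sqh-Gal4, which follows the promoter of spaghetti squash and is active in all tissues and stages. Flies of the Ub6 groups were heterozygous for transgene and driver, and control flies were heterozygous for the driver. The labels give the insertion site Attp40 for all samples. Each sample pooled 10 flies raised at 25°C, and their sex was not given in the sources used here.

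The red-brown colour of the fly eye comes from 2 kinds of pigment that are stored in granules of the pigment cells and photoreceptors. Brown ommochromes are made from tryptophan and red drosopterins from GTP through the pteridine pathway. The precursors enter the granules through ABC transporters that consist of White with either Scarlet or Brown, so loss of white removes both colours. Several of these genes are also active in the Malpighian tubules, the excretory organ of the fly.

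The quantity reported for each gene is the authors' average log2 CPM. Here this is taken as the log2 of a mean read count scaled to library size (CPM), fitted over all 12 libraries. A mean of separate log2 values is not meant. It pools the 3 groups, and no value of a single sample or group was analysed here. The spread between replicates is therefore unknown, no test could be run, and nothing below says whether a gene differed between Ub6-GG, Ub6-Stop and control flies. The reads came from the 3′ ends of poly(A) transcripts, so that levels of different genes were set side by side without a correction for length. Whether genes differ in how fully their 3′ ends are annotated or their reads aligned was not tested. Ratios between genes are therefore ratios of reads.

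The lowest average, 0.25 on the log2 scale, was shared by 2186 genes (12.9% of the rows), and it is the value of a gene without a read. This floor stands for the prior count of 2 that the fitting software adds by default, which gave an average effective library of 1684423 reads and 20213076 reads over all libraries. The next 542 genes fell on 12 separate values, the number expected of genes with 1 read in 1 of 12 libraries of unequal size. Their recovered total was 0.995 reads (median, from 0.923 to 1.11). Levels are therefore also given as reads per library of average size, in which 1 read is 0.594 CPM. Recovered totals were rounded to whole reads for the intervals. These are exact 95% Poisson intervals, except for cn, which has a limit on the upper side only. They cover counting error only, are narrower than any interval that includes the spread between flies, and treat reads as independent although no molecular identifiers are known to have been used.

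The 8 genes spanned the range from no read to the upper part of the table. Reads were recovered for 7 of them, and 6 lay above the median of all rows (2.64 on the log2 scale, 8.49 reads per library). The median of the 8 average log2 CPM values was 3.43. The most abundant was v, followed in order by st, ma-l, se, w, ry and bw, with cn at the floor. The counting intervals of neighbours in this order overlapped for ma-l and se, whose reads stood at a ratio of 1.102, and for w and ry, with a ratio of 1.083. The other neighbours were separated by more than the counting error.

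**Figure D1:**
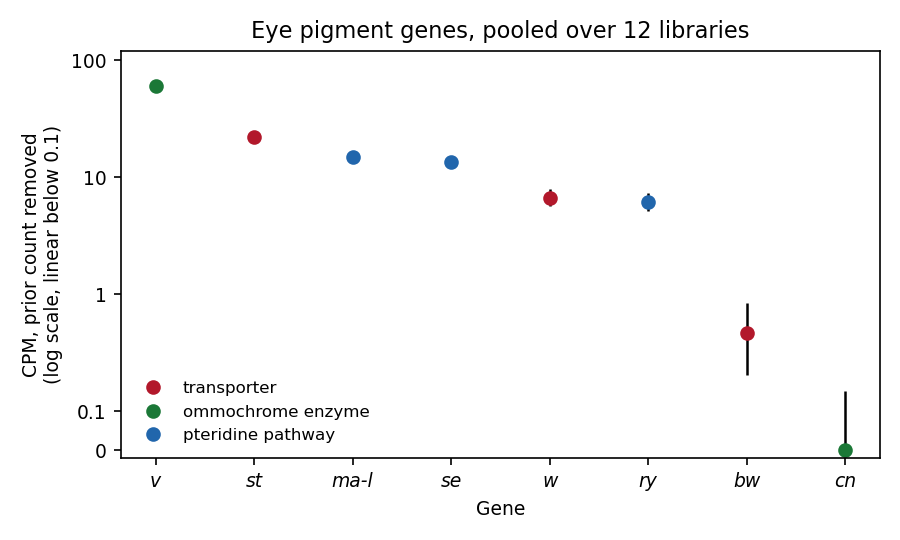
CPM of each eye pigment gene pooled over 12 libraries, after removal of the prior count, on a log axis that is linear below 0.1. Points are pooled values coloured by role and bars are 95% Poisson intervals (for cn a limit on the upper side only), from v at 59.7 CPM down to cn at 0.

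Among the transporter genes, w encodes the subunit that both pigment routes share. Its average log2 CPM was 2.98, which is 11.3 reads per library (interval 9.43 to 13.3, from a recovered total rounded to 135 reads). Of all rows, 54.6% were lower than w. Its partner for ommochrome precursors, st, was more abundant, with an average log2 CPM of 4.54 and 37.3 reads per library (interval 33.9 to 40.9). Reads of st exceeded those of w 3.31-fold. The partner for pteridine precursors, bw, was near the floor. Its average log2 CPM of 0.73 stood for 0.786 recovered reads per library. The recovered total over all 12 libraries was rounded to 9 reads for the interval (4.12 to 17.1). Reads of w exceeded those of bw 14.3-fold, and those of st exceeded them 47.4-fold. The recovered reads of bw were thus fewer than the libraries.

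The other 12 transporters of the same ABCG family in the table had a median average log2 CPM of 4.81, and 10 of them were above the median of all rows. The highest was CG17646 with 145.6 reads per library, 12.9-fold above w, and the lowest was CG5853 with 1.85 reads. Of the family, bw was thus below every other gene on the list, and w was above CG5853 (1.19) and CG11069 (1.70) but below the others on the log2 scale, of which CG4822 came closest at 3.07. The counting intervals of bw and CG5853 overlapped, the latter reaching from 1.15 to 2.78 reads per library, and so did those of w and CG4822 (10.3 to 14.3).

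Tryptophan enters the ommochrome pathway through v, the tryptophan oxygenase. It had the highest average log2 CPM of the 8 genes, 5.93, which is 100.5 reads per library (interval 94.9 to 106.3) and above 88.3% of all rows. Reads of v exceeded those of w 8.93-fold and those of st 2.70-fold. A later enzyme of the same pathway, the kynurenine hydroxylase encoded by cn, had no read in any of the 12 libraries. A count of 0 allows up to 3 reads over all libraries, which is 0.148 CPM or 0.25 reads per library. This is a 95% limit on the upper side only. It is lower than the upper end of an interval of the kind given for the other genes.

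The 4 further genes of the ommochrome pathway were just as uneven. The kynurenine formamidase gene KFase, which acts between v and cn, had 25.8 reads per library, and kar, a transporter-like gene with an ommochrome phenotype, had 10.3. Kyat, whose product diverts kynurenine to kynurenic acid, was the highest at 155.2 reads per library, 1.54-fold above v. The peroxidase gene cardinal (cd), placed late in the pathway, was at the floor like cn. Rows whose symbol is the current name of a protein-coding gene in the release 6 annotation numbered 12565. Coding genes listed under other symbols are not among them. Of these rows, 1067 (8.49%) were at the floor, so that a coding gene without a read was not rare in these libraries.

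**Figure D2:**
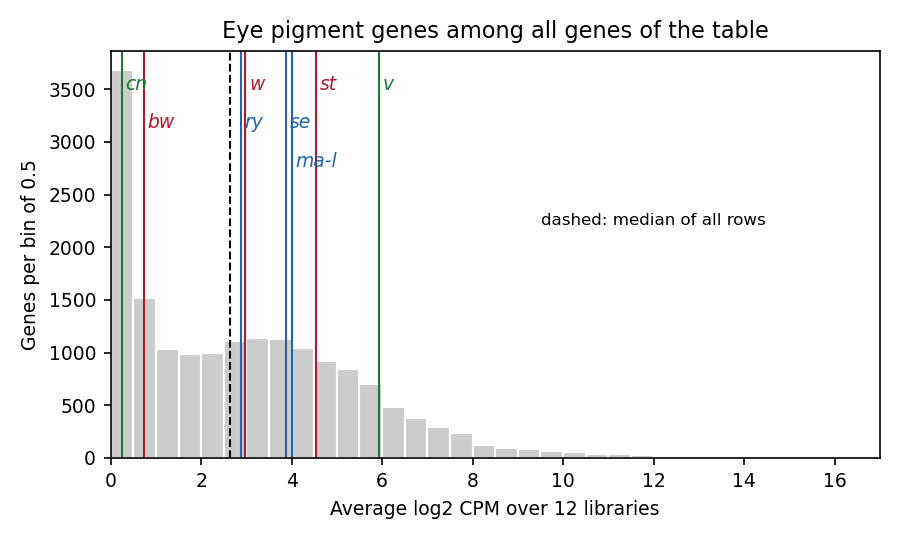
Number of genes in bins of 0.5 of the average log2 CPM over 12 libraries, for all 16997 rows (grey bars), with the position of each eye pigment gene as a coloured line and the median of all rows (2.64) dashed. Of the 8 genes, 6 lie to the right of the median, bw lies to its left and cn is at the floor of 0.25.

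The pteridine side of eye pigmentation was represented by se, ry and ma-l. The product of se is an omega-class glutathione transferase that makes an intermediate of the red drosopterins. Its average log2 CPM was 3.88, or 22.8 reads per library (interval 20.1 to 25.6), higher than 66.6% of all rows. The other omega-class genes GstO1, GstO2 and GstO3 were each more abundant, with 73.5, 55.6 and 40.6 reads per library, so that se was the lowest of the 4. GstO1 exceeded se 3.23-fold and GstO3 exceeded it 1.78-fold. These are related genes, and reads that fit more than 1 of them could be lost or shared, which was not tested.

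Xanthine dehydrogenase, the product of ry, is a molybdenum enzyme of purine and pteridine metabolism, and ma-l encodes the sulfurase that activates its cofactor. The average log2 CPM of ry was 2.88, or 10.4 reads per library (interval 8.67 to 12.4), and that of ma-l was 4.01, or 25.1 reads (interval 22.3 to 28.1). Reads of ma-l exceeded those of ry 2.41-fold. The same cofactor serves the aldehyde oxidases, of which AOX1 was far above ry with 193.4 reads per library (18.6-fold) and AOX3 was above it with 87.2 reads (8.40-fold). AOX2 and AOX4 were low, at 1.33 and 0.325 reads per library. Of the genes that build the cofactor upstream of ma-l, Uba4 had 10.5 reads per library, close to ry and above the median of all rows, while Mocs1 had 7.77 and cinnamon (cin) had 4.37. The rows listed as CG42503 and Mocs2 were at the floor. They were taken for Mocs2A and Mocs2B by the synonyms of the annotation, where Mocs2 stands for both genes, so that these rows are uncertain.

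The 9 other genes listed with the pteridine pathway had a median average log2 CPM of 5.35, and 8 of them were above the median of all rows. Punch (Pu), the GTP cyclohydrolase that opens the pathway, was the highest of them with 135.3 reads per library, 5.95-fold above se. Purple (pr), which encodes the next enzyme, had 130.4 reads. Clot (cl), whose product works at the same step as se, had 62.4 reads. DhpD with 22.3 reads and Dhpr with 20.8 were close to se, and the lowest was prune (pn) with 4.23 reads.

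Genes named for eye colour also include a group that builds the pigment granule, mostly subunits of vesicle sorting complexes that all cells use. Of 14 such genes 13 were in the table, with Pldn not found under a symbol known to the annotation. Their average log2 CPM ranged from 2.54 for deep orange (dor) to 6.52 for garnet (g) with a median of 3.93, and 12 of the 13 were above the median of all rows. None was at the floor.

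As a check of the tissue, markers of photoreceptors and Malpighian tubules were read from the same column. All 11 photoreceptor genes were above the median of all rows, from Rh3 at 32.4 reads per library to Arr2 at 2139, with ninaE, the main rhodopsin, at 401.6. These genes mark photoreceptors, and no marker of the pigment cells was read, so the coverage of pigment cells is not known. Of the tubule genes, Uro, the urate oxidase, had 40.1 reads per library, within the range of the photoreceptor genes. CapaR had 2.74 reads, Irk3 had 1.61 and Lkr had 1.06. Whether the pigment gene reads came from the eye, the tubules or other tissues cannot be told apart in whole flies, and neither can fewer cells of a type and less RNA per cell.

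**Figure D3:**
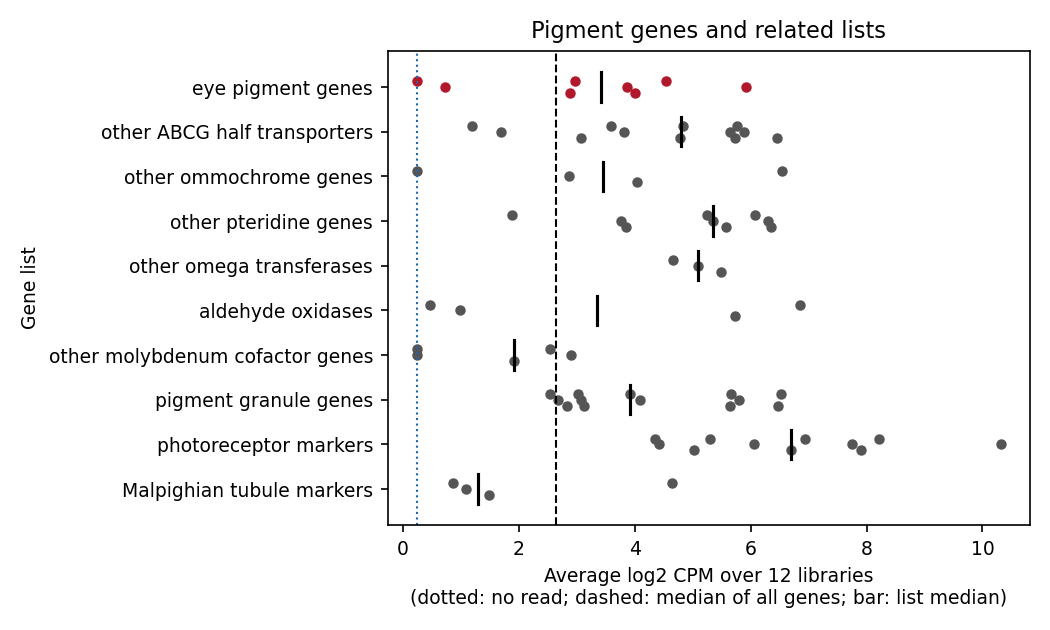
Average log2 CPM over 12 libraries of each eye pigment gene (red) and of each gene in 9 related lists (grey), 1 point per gene, with a bar at each list's median, a dotted line at the value of a gene without a read and a dashed line at the median of all rows. Photoreceptor markers have a median of 6.69, the other pteridine genes 5.35 and the eye pigment genes 3.43.

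The position of the genes bears on what their counts can hold. In the release 6 annotation, w, v and ma-l are on chromosome X, st and se on 3L, ry on 3R, and bw and cn on 2R. The authors aligned to dm3, an earlier build, so coordinates are not given and the gene models may differ. Whether reads of cn and bw can be aligned to that build was not tested, so their low counts need not mean few transcripts. Features with a curly bracket in their name were left out of the search for overlaps of every gene, bw included. Whether such a feature lies within bw, whose annotated span is 10695 bases, was therefore not tested. With such features left out, no other gene overlaps v, ry or ma-l. The whole of w lies on the opposite strand within the span of kirre (61.3 reads per library), and the whole of st lies on the opposite strand within CG43373 (3.15 reads), with no exon of either host at the 3′ end of the gene inside it. The 3′ end of se overlaps that of GstO2 on the opposite strand by 61 bases, and that of bw overlaps mi (2.91 reads per library) by 456 bases. An antisense RNA, CR45108 with 0.768 reads per library, overlaps 1734 bases of cn but does not reach its annotated 3′ end. Whether the reads were counted by strand is not given in the sources used here. Without strand, reads from the overlapping ends could not be told apart, which makes the levels of se, GstO2, bw and mi uncertain. The paper states that reads were tabulated by gene region, and whether only exons were counted is not given. With counting over whole gene spans and without strand, the levels of w and st inside their hosts would be uncertain too. So would that of cn. The part of the overlap in the low level of bw was not tested. Where a transgene carries a white marker gene, its transcripts would be counted with w, and the markers of the transgenes are not given in the sources used here.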

How the data were processed

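RNA of 12 whole-fly samples (4 per group) was sequenced by the authors from poly(A)-primed 3′ libraries made from 250 ng of total RNA, de-multiplexed with CASAVA 1.8.2 per the labels, aligned to dm3 with STAR, tabulated per gene and fitted in edgeR. Groups follow the sample labels. The authors deposited 2 tables of 16997 genes. The only values used were the average log2 CPM, deposited by the authors as 1 number per gene over all libraries and identical in both tables for all 16997 genes. The other 4 columns hold the authors' own comparisons with control (log2 fold change, likelihood ratio, p-value, FDR) and were not used. No column (0 in each table) gives a single library, so the group tests planned for that case were not run.

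Reads per library of average size were recovered from the floor of the column with a prior count of 2, in Python 3.11.15 with pandas 2.3.3 and scipy 1.17.1, by a step tested on simulated data. Recovered library sizes include the authors' normalization. Of the 1221 genes with 1 to 3 recovered reads, 93.2% of the totals fell within 0.15 of a whole number. Symbols of 16920 of 16997 rows were matched to the release 6 annotation. Members and lists were chosen with earlier results of these data known. All members were named, and of each list the highest, the lowest, those at the floor and those missing. Others were named after their values were seen. Sequences were not used here.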

Additional observations from a re-analysis of the deposited data

How the results depend on the processing

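No paired analysis was possible because every value used pools the 12 libraries, and for the same reason no replicate could be left out. The count of 6 eye pigment genes above the median of all rows cannot change with the prior count, since removing or rescaling it keeps the order of the rows. The prior count sets the recovered reads in proportion, for w to 5.63 reads per library with 1 and 16.9 with 3, but the genes with 1 read would then have totals of 0.498 and 1.49. The CPM does not depend on it. The median share of rows below an eye pigment gene was 60.6% among all rows, 54.7% among rows with reads and 43.2% among rows above a log2 CPM of 1. These values keep the genes that the filter removes (cn, and then cn and bw) at 0%. Over the 7 and the 6 genes that pass, an alternative chosen after seeing the data, they were 61.6% and 53.1%. Without genes at the floor, the median average log2 CPM was 3.88 for the eye pigment genes, 4.04 for the other ommochrome genes and 2.54 for the other molybdenum cofactor genes, against 3.43, 3.46 and 1.92 with them. The planned comparison of protein sequences was not run. At this depth a count of 0 allows up to 3 reads over all libraries, or 0.148 CPM. Whether more depth would raise the counts of cn and bw was not tested.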
